A study of Mus musculus with 2 samples.

Results

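The 10 genes described here make and load MHC class I molecules: the heavy chain genes H2-K1 and H2-D1, the light chain gene B2m, the peptide transporter genes Tap1 and Tap2, tapasin (Tapbp), the inducible proteasome subunit genes Psmb8, Psmb9 and Psmb10, and the transcriptional activator Nlrc5. They were chosen by symbol among the 32574 genes of the deposited tables, and all 10 were found. Their UMI counts, where a UMI marks 1 captured RNA molecule, came from droplet single-cell RNA sequencing of adductor muscle on day 7 after femoral artery ligation, which blocks the main artery of the hind limb. All mice of both groups had this surgery, and no muscle without it was included. The WT group was control littermates. The Apoa1bp-/- group, also labelled AIBP-KO and called the knockout here, lacks AIBP, a secreted protein that binds apolipoprotein A-I and an enzyme that repairs damaged NAD(P)H. The labels do not restrict the deletion to a cell type. Ligation was done in 4 mice of each genotype, and 1 library per genotype was analysed, so no difference between genotypes has a replicate check and none was tested. The sources used here do not give the strain, sex or age of the mice, or whether the 4 were pooled. The labels name all cells of the muscle, while the title of the series speaks of endothelial cells.

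Every nucleated cell can show fragments of its own proteins on its surface to CD8 T cells. The proteasome cuts the proteins, the Tap1-Tap2 pump carries the peptides into the endoplasmic reticulum, and tapasin holds the empty heavy chain and B2m beside the pump until a peptide fits. Interferon adds Psmb8, Psmb9 and Psmb10, which replace the constitutive catalytic subunits Psmb5, Psmb6 and Psmb7 and give the immunoproteasome, whose cuts leave peptide ends that class I molecules bind well. Nlrc5 drives the class I genes through an upstream module, and interferon regulatory factors (IRF) and NF-kB act at neighbouring sites. Resting skeletal muscle fibres are known for very low class I, while endothelium and leukocytes carry much of it.

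The upstream sequences of H2-K1, H2-D1 and B2m are shown because these 3 genes hold shared control motifs and differ in which of the searched letters they have. Sequences are from RefSeq (GRCm38.p6) and run 5′ to 3′ along the gene. Capitals mark an NF-kB motif (the first run of capitals in H2-K1 and H2-D1), an IRF motif (GAANNGAAA on either strand, read as TTTCACTTC in H2-K1 and H2-D1, or in B2m a longer form with GAAA at both ends), and TGACG followed by ATTGG, the core letters of the X2 and Y boxes of the class I module.
H2-K1, chr17:34000348-34000470, minus strand: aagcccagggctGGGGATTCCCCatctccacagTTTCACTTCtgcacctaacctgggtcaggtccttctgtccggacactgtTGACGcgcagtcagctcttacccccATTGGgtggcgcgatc
H2-D1, chr17:35262923-35262952, plus strand: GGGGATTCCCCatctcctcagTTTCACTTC
H2-D1, chr17:35262993-35263022, plus strand: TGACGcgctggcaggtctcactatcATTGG
B2m, chr2:122147536-122147650, plus strand: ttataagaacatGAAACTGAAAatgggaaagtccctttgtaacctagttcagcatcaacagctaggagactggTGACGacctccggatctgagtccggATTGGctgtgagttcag
In all 3 genes 20 bases lie between TGACG and ATTGG. H2-K1 and H2-D1 are identical at 29 of 30 bases across the NF-kB and IRF motifs and at 23 of 30 bases from TGACG to ATTGG. Among 32851 RefSeq promoters, scanned on both strands over the 250 bases before each start, TGACG followed by ATTGG at 10 to 40 bases was found in 0.825%, GAANNGAAA in 6.31%, the longer form in 2.98%, and the NF-kB motif in 10 promoters (0.0304%). B2m has the longer IRF motif and the TGACG and ATTGG pair, and not the exact letters of the NF-kB motif in this window. Only the exact form seen in H2-K1 and H2-D1 was searched, so other forms of an NF-kB site would be missed. Whether B2m has such a site was not tested. Of the 10 genes 8 were matched in the promoter table, all except Tap2 and Nlrc5. Tap1 and Psmb9 lie head to head, and their windows share 275 bases on opposite strands. Psmb9, Tap1, Psmb8 and Tap2 are neighbours on chromosome 17, which also carries H2-K1, H2-D1 and Tapbp, while B2m is on chromosome 2, and Psmb10 and Nlrc5 are on chromosome 8. A match of letters is a description of these windows, and binding was not measured.

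The WT library held 80954991 UMIs in 14035 barcodes and the knockout library 80444279 UMIs in 9392 barcodes, and 43 barcodes occurred in both. After filters, 13837 WT cells (median 4461 UMIs) and 9164 knockout cells (median 6825 UMIs) were left. The targeted gene, listed under its present name Naxe, had 4061 UMIs in the WT library and 0 in the knockout library, where 0 counts allow up to 0.0374 CPM. Cells were sorted into classes by marker genes, at least 3 per cell, and 81.2% of WT and 82.0% of knockout cells had a class. In no class did the 10 leading genes, ranked by fold over the mean of the other classes, include a marker of another class. This held for muscle fibre-like barcodes too, whose median of 1016 and 1059 UMIs was far below that of the libraries. The ranking does not measure purity, since cells with 3 markers of an unrelated class had been removed. It also sees only listed markers. The leading genes of monocyte-like cells included Prtn3, Siglech and Klk1, which are on no class list, and a mix of cell types there was not tested. Related classes shared markers. The fibroblast list summed to 22984 and 20843 CPM in WT and knockout tenocyte-like cells. In monocyte-like cells the macrophage list summed to 3021 and 2261 CPM. Classes are called "-like" for their markers. Levels are CPM, the gene's UMIs per 1000000 UMIs of the class, given for the 14 classes of at least 50 cells in both libraries. Intervals are exact 95% intervals and cover counting error only. A level was compared with that of the same gene in another class or library, never with that of another gene, since a droplet count also depends on the transcript's length and end.

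RNA of other cells can enter a droplet, so the macrophage marker list was followed into the other classes. Its 10 genes summed to 17774 CPM in WT and 18659 CPM in knockout macrophage-like cells. In endothelial-like cells the sum was 568 and 518 CPM, in fibroblast-like cells 591 and 423, and in satellite cell and myoblast-like cells 562 and 336. These sums are 3.19% and 2.77%, 3.32% and 2.26%, and 3.16% and 1.80% of the level in macrophage-like cells. The same share of the macrophage level of each gene was therefore worked out for the other classes and is given beside the results it touches.

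H2-K1 and H2-D1 encode the classical heavy chains that hold the peptide. H2-K1 was highest in the lymphocytes, at 2913 (2685 to 3155) CPM in WT and 2683 (2525 to 2849) CPM in knockout NK cell-like cells and at 2576 and 2721 CPM in T cell-like cells. Macrophage-like cells had 1442 and 1489 CPM, and endothelial-like cells 1378 (1323 to 1435) and 1268 (1233 to 1303) CPM. Endothelium thus stood at the level of the myeloid cells, above every other class that is not a leukocyte. Fibroblast-like cells had 463 and 355 CPM, Schwann-like cells 334 and 619 CPM, and mural-like cells, the pericytes and smooth muscle cells around vessels, 324 and 253 CPM. The muscle lineage was lowest. Satellite cell and myoblast-like cells had 192 and 170.0 CPM, committed myocyte-like cells 142 and 96.8 CPM, and muscle fibre-like barcodes 125 and 113 CPM. From the highest to the lowest of the 14 classes the WT level spanned 23.2-fold and the knockout level 28.1-fold.

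H2-D1 followed a similar order with macrophages nearer the top, at 2703 and 2821 CPM, beside 2792 and 2721 CPM in NK cell-like cells and 2369 and 2793 CPM in neutrophil-like cells. Endothelial-like cells had 1508 and 1695 CPM and Schwann-like cells 1190.3 and 1329.5 CPM. Schwann-like cells thus held clearly more than the fibroblast level of H2-D1 (643 and 538 CPM), which was not so for WT H2-K1. B2m, the light chain shared by all class I molecules, was highest in macrophage-like cells, at 2338 (2319.8 to 2356) and 2816 (2795 to 2837) CPM, and lowest in muscle fibre-like barcodes, at 164 (125 to 211) and 205 (163 to 255) CPM. It was 1545 and 1839.5 CPM in endothelial-like, 631 and 735 CPM in fibroblast-like and 281 and 338 CPM in satellite cell and myoblast-like cells. Neighbours in these orders were often not separable: of 13 neighbouring pairs of classes the counting intervals overlapped for 7 (H2-K1), 6 (H2-D1) and 8 (B2m) in the WT library.

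In the muscle classes, part of the low level equals what macrophage RNA at the share of its markers would add. In muscle fibre-like barcodes the macrophage list stood at 2.94% and 4.44% of its macrophage level, and the same share of macrophage B2m is 68.8 and 125 CPM, set beside a measured 164 and 205 CPM. For H2-K1 that share is 42.5 and 66.1 CPM, beside 125 and 113 CPM measured. In endothelial-like cells the same reckoning gives only 46.1 and 41.3 CPM of H2-K1, beside 1378 and 1268 CPM measured. Macrophage RNA at that share is thus a small part of the endothelial level and a larger part of the fibre level. Thinned to 1000 UMIs per cell, an H2-K1 UMI was found in 71.1% of the 287 endothelial-like cells left in the WT library and 73.5% of the 340 left in the knockout library, and in 13.6% of 81 and 5.80% of 138 muscle fibre-like barcodes. Without thinning these shares were 94.2% and 98.1% at medians of 2415 and 7444 UMIs, and 18.6% and 11.7% at medians of 1016 and 1059 UMIs.

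The transporter genes were highest in dendritic-like and T cell-like cells in the WT library. Tap1 reached 186 (151 to 227) CPM in WT and 186 (155 to 222) CPM in knockout dendritic-like cells, and 114 and 114 CPM in T cell-like cells. It was 47.8 and 61.6 CPM in endothelial-like, 43.8 and 56.0 CPM in macrophage-like, 18.0 and 26.6 CPM in fibroblast-like, and 10.7 and 16.9 CPM in satellite cell and myoblast-like cells. Tap2, the other chain of the pump, was 108 and 105 CPM in T cell-like and 84.7 and 123 CPM in dendritic-like cells, with 54.8 and 64.3 CPM in endothelial-like cells and 33.2 and 34.9 CPM in macrophage-like cells. The intervals of all 13 neighbouring pairs of classes overlapped for Tap2 in both libraries, so only its distant classes differ beyond counting error. Tapbp had another order. It was highest in monocyte-like cells (263 and 239.5 CPM), and WT fibroblast-like cells (155 CPM) were above endothelial-like cells (118 CPM), while in the knockout library fibroblast-like cells (101 CPM) were below them (129 CPM).

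Psmb8 and Psmb9 were highest in dendritic-like cells, and Psmb10 was not. Psmb8, the inducible counterpart of Psmb5, was at 914 (835 to 999) CPM in WT and 1404 (1316 to 1495) CPM in knockout dendritic-like cells, and Psmb9, the counterpart of Psmb6, at 617 and 978 CPM. Psmb8 was 613 and 708 CPM in T cell-like, 288 and 377 CPM in macrophage-like and 267 and 411 CPM in endothelial-like cells. In the remaining tissue classes it was much lower, at 79.8 and 129 CPM in fibroblast-like, 50.6 and 53.9 CPM in satellite cell and myoblast-like cells and 24.5 and 30.8 CPM in muscle fibre-like barcodes. Psmb10, the counterpart of Psmb7, is encoded apart from the class I region and had a flatter pattern. Its WT level spanned 4.83-fold over the 14 classes, from 38.1 CPM in satellite cell and myoblast-like to 184 CPM in monocyte-like cells, and the highest knockout level was 276 CPM in NK cell-like cells. The WT span compares with 37.3-fold for Psmb8 and 57.4-fold for Psmb9.

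Nlrc5, the class I activator, was sparse and stood out in T cells. It had 28 UMIs in WT and 34 UMIs in knockout T cell-like cells, or 81.7 (54.3 to 118) and 82.7 (57.3 to 116) CPM, and 43.5 and 52.7 CPM in NK cell-like cells. Macrophage-like cells had 10.7 and 12.8 CPM and endothelial-like cells 10.0 and 12.03 CPM. The T cell level was 7.65 (4.99 to 11.3) times the macrophage level in the WT library and 6.46 (4.40 to 9.23) times in the knockout library. Fibroblast-like cells had 34 and 9 UMIs (1.52 and 0.598 CPM), and satellite cell and myoblast-like cells 6 and 10 UMIs. No UMI was found in muscle fibre-like barcodes, which allows up to 8.18 CPM in the WT library and 7.70 CPM in the knockout library. None was found in WT tenocyte-like and WT neutrophil-like cells either, which allows up to 4.03 and 28.3 CPM. At 1000 UMIs per cell an Nlrc5 UMI was in 9.16% (4.82 to 15.5) of 131 WT and 9.17% (4.67 to 15.8) of 120 knockout T cell-like cells, by exact Clopper-Pearson intervals. Without thinning the shares were 17.0% and 21.0% at medians of 1785 and 2516 UMIs, against 0 of 161 and 0 of 264 muscle fibre-like barcodes at medians of 1016 and 1059 UMIs, which allows up to 1.86% and 1.14%.

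**Figure D1:**
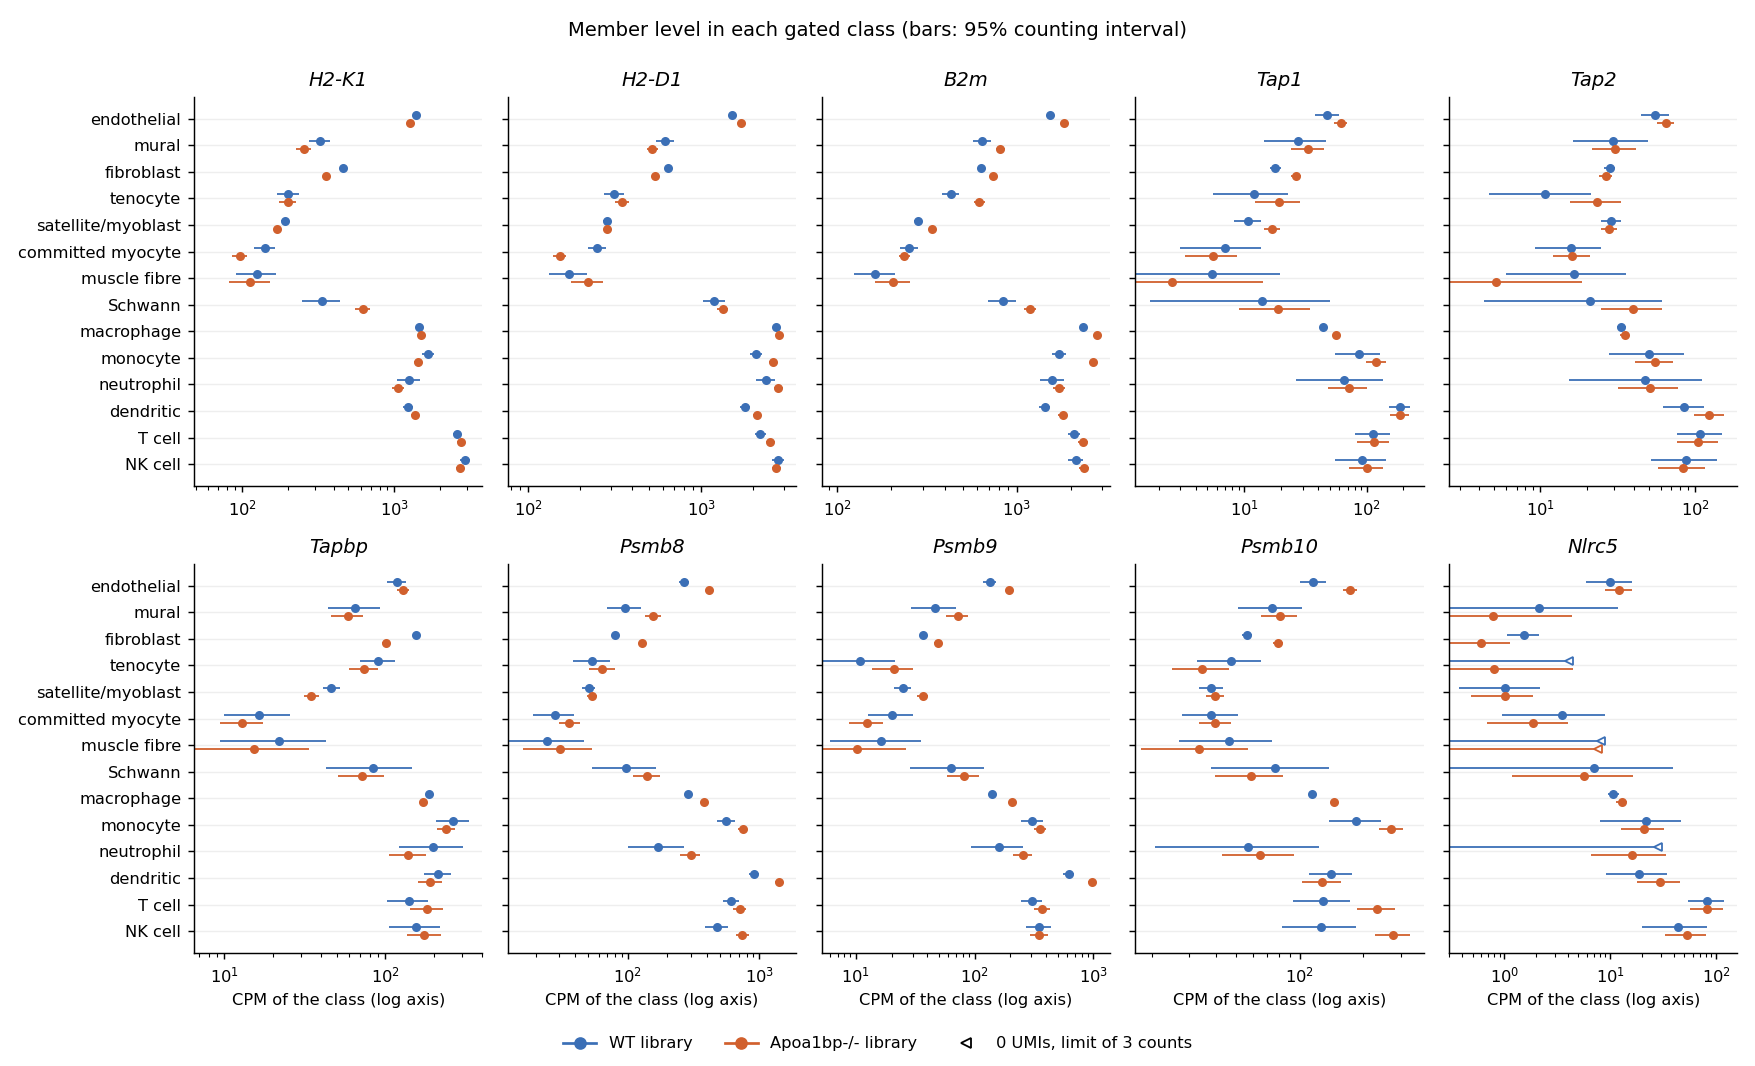
Level of each of the 10 genes (CPM of the class total, log axis) in the 14 cell classes, for the WT and the knockout library, with exact 95% counting intervals. Endothelial-like cells lie near the leukocytes for the heavy chains and B2m, muscle fibre-like and committed myocyte-like cells are lowest for H2-K1, and dendritic-like cells lead for Tap1, Psmb8 and Psmb9.

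Endothelial-like cells were compared with satellite cell and myoblast-like cells and with mural-like cells. Fibroblast-like cells were not compared in this way, and WT Tapbp was higher in them (155 CPM) than in endothelial-like cells (118 CPM). All 10 genes were at least 25% higher in endothelial-like than in satellite cell and myoblast-like cells in both libraries, where 35.5% of all genes were in the WT library and 32.9% in the knockout library. The ratio was 7.16 (6.67 to 7.69) for H2-K1 in the WT library and 7.46 (7.06 to 7.88) in the knockout library, and for Psmb8 5.27 and 7.62. The smallest was Tap2, at 1.91 (1.47 to 2.48) and 2.32 (1.95 to 2.76). All 10 were also higher in endothelial-like than in mural-like cells, which wrap the same vessels, against 29.2% and 26.2% of all genes. There H2-K1 was 4.25 and 5.00 times higher and Psmb8 2.82 and 2.62 times. For 2 genes the WT interval included 1, Tap1 (1.75, 0.966 to 3.42) and Nlrc5, which rests on 1 UMI in each library's mural-like cells.

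Macrophage-like over fibroblast-like cells gave 8 of 10 genes at least 25% higher in the WT library (all genes 26.4%) and 10 of 10 in the knockout library (24.6%). The ratio was 4.20 and 5.24 for H2-D1 and 3.80 and 4.20 for Psmb9. The loading genes Tap2 (1.19, 1.07 to 1.32) and Tapbp (1.22, 1.17 to 1.27) were the WT exceptions. Dendritic-like and macrophage-like cells differed in both directions. In both libraries 5 genes were at least 25% higher in dendritic-like cells (all genes 29.6% and 34.5%) and 2 were at least 20% lower (all genes 42.8% and 37.7%). The higher genes were Psmb9 at 4.41 (3.93 to 4.94) and 4.75 (4.37 to 5.15), Tap1 at 4.25 and 3.33, Psmb8 at 3.18 and 3.73, Tap2 at 2.55 and 3.53 and the sparse Nlrc5 at 1.76 (0.835 to 3.29) and 2.29. The lower genes were B2m at 0.614 (0.571 to 0.659) and 0.641 (0.606 to 0.678) and H2-D1 at 0.663 and 0.741, a smaller share of the 10 than of all genes. Between the limits lay H2-K1 at 0.852 and 0.921, Tapbp at 1.13 and 1.11, and Psmb10 at 1.24 and 0.879.

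Between genotypes the inducible proteasome genes and Tap1 were higher in the knockout library in endothelium, macrophages and fibroblasts, while the heavy chains were close to WT or lower. Ratios are knockout over WT. Psmb8 was 1.54 (1.39 to 1.71) in endothelial-like, 1.31 (1.27 to 1.35) in macrophage-like and 1.62 (1.51 to 1.72) in fibroblast-like cells, but 1.06 (0.923 to 1.23) in satellite cell and myoblast-like cells. Psmb9 was higher in all 4 classes, at 1.46 (1.26 to 1.70), 1.47 (1.41 to 1.54), 1.33 (1.20 to 1.47) and 1.47 (1.21 to 1.79) in the same order. Psmb10 had the pattern of Psmb8, at 1.50 (1.28 to 1.77), 1.27 (1.21 to 1.34), 1.40 (1.29 to 1.52) and 1.04 (0.885 to 1.24). Tap1 was 1.29 (1.00 to 1.68), 1.28 (1.18 to 1.38), 1.48 (1.28 to 1.70) and 1.57 (1.17 to 2.13), and its endothelial interval touches 1. Tap2, the other chain of the pump, was nearer to 1, at 1.17, 1.05, 0.943 and 0.967, with 1 inside all 4 intervals.

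The surface molecule's chains differed by class. H2-K1 was 0.920 (0.876 to 0.966) in endothelial-like and 1.03 (1.02 to 1.05) in macrophage-like cells, and lower in fibroblast-like cells at 0.766 (0.741 to 0.792) and satellite cell and myoblast-like cells at 0.883 (0.819 to 0.953). H2-D1 was 1.12, 1.04, 0.838 and 1.00. B2m was 1.19 (1.14 to 1.24), 1.20 (1.19 to 1.22), 1.16 (1.14 to 1.19) and 1.20 (1.14 to 1.28), a similar value in all 4 classes and short of 25% higher in each. Tapbp, which tethers the heavy chain to the pump, was lower in fibroblast-like cells at 0.648 (0.610 to 0.688) and in satellite cell and myoblast-like cells at 0.750 (0.638 to 0.882), and 0.910 and 1.10 in macrophage-like and endothelial-like cells. Nlrc5 was 1.20 (1.02 to 1.41) in macrophage-like and 1.20 (0.679 to 2.22) in endothelial-like cells. In fibroblast-like cells, where it was under 5 CPM in both libraries and so not counted, it was 0.394 (0.166 to 0.840), and on cells thinned to 1000 UMIs its direction turned, to 1.36.

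Counted per class among genes of at least 5 CPM in either library, 4 of 10 genes were at least 25% higher in the knockout library and 0 were at least 20% lower in endothelial-like cells, where 18.4% of all genes were higher and 34.2% lower. The macrophage-like counts were 4 and 0 of 10, against 9.91% and 30.1% of all genes, and the genes were Tap1, Psmb8, Psmb9 and Psmb10, as in endothelial-like and fibroblast-like cells. In fibroblast-like cells 4 of 9 were higher and 2 lower (H2-K1 and Tapbp), against 17% and 28.6%. In satellite cell and myoblast-like cells 2 of 9 were higher (Tap1 and Psmb9) and 1 lower (Tapbp), against 18.8% and 27.1%, which is close to the share of all genes for the higher side. The median log2 ratio of the counted genes was 0.24 in endothelial-like cells (all genes -0.14), 0.26 in macrophage-like cells (all genes -0.15), 0.22 in fibroblast-like cells (all genes -0.09) and 0.06 in satellite cell and myoblast-like cells (all genes -0.07). In endothelial-like cells the median gene of at least 20 CPM stood at -0.11, and with ratios taken relative to that gene the higher count was 7 of 10, where 25.8% of all genes were higher.

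**Figure D2:**
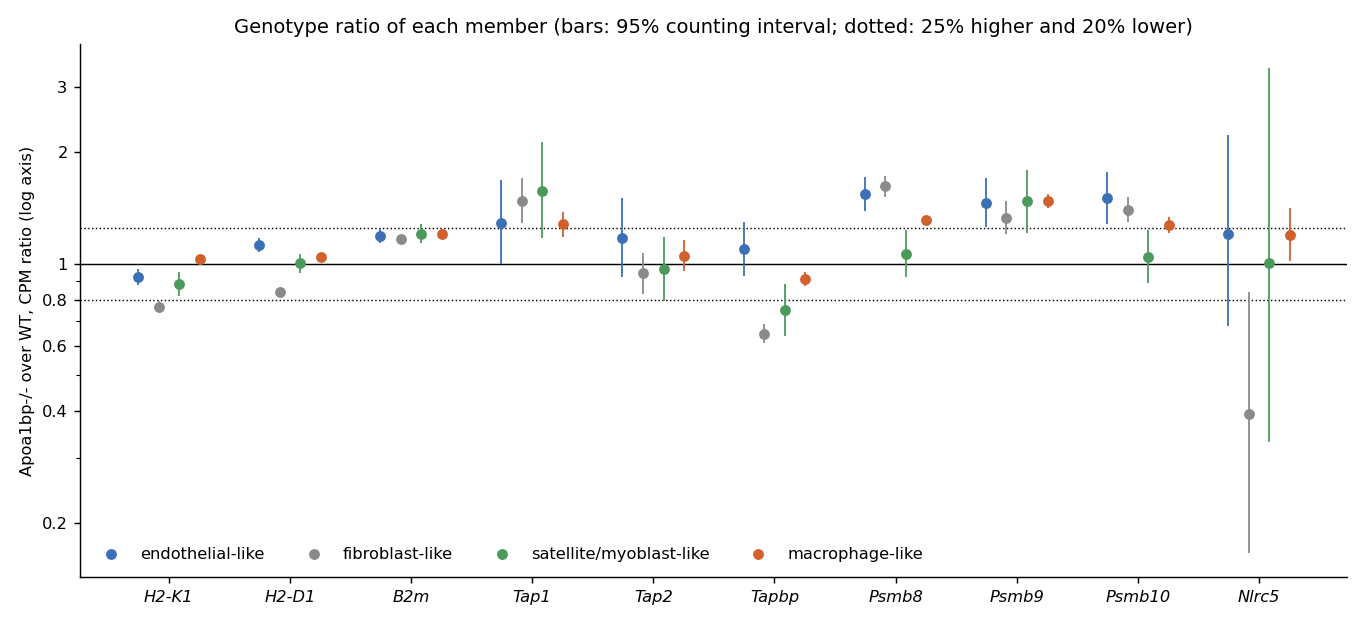
Knockout over WT ratio (log axis) of each gene in the 4 classes of at least 200 cells per library, with exact 95% intervals for counting error, 1 library per genotype. Psmb8, Psmb9, Psmb10 and Tap1 lie above the line for 25% higher in endothelial-like, macrophage-like and fibroblast-like cells, and Tapbp and H2-K1 lie under the line for 20% lower in fibroblast-like cells.

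Macrophage markers were lower in the knockout library in fibroblast-like and satellite cell and myoblast-like cells, so the same share of macrophage RNA was taken off each class as an alternative chosen after the data were seen. In endothelial-like cells Psmb8 was then 1.55, Psmb9 1.47, Psmb10 1.51 and H2-K1 0.921. In satellite cell and myoblast-like cells H2-K1 moved from 0.883 to 0.975, H2-D1 from 1.00 to 1.18 and B2m from 1.20 to 1.39. In fibroblast-like cells H2-K1 was 0.774 and Tapbp 0.649. Other fibroblast ratios moved further, such as B2m from 1.16 to 1.21 and Psmb8 from 1.62 to 1.71. The endothelial values and fibroblast H2-K1 and Tapbp are thus nearly as without this step. Those of the heavy chains and B2m in satellite cell and myoblast-like cells are not.

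Smaller classes held fewer than 200 cells in at least 1 library. In committed myocyte-like cells, which express Myog and prepare to fuse, 1 of 9 genes was higher and 5 were lower, against 20.2% and 35.4% of all genes. H2-D1 was 251 CPM for WT and 153 CPM for the knockout with a ratio of 0.608 (0.525 to 0.705) and H2-K1 142 CPM for WT and 96.8 CPM for the knockout with a ratio of 0.684 (0.564 to 0.831). There the macrophage list was at 3.44% of its macrophage level in the WT library and 1.43% in the knockout library. With that share taken off, H2-D1 was 0.710 and H2-K1 0.821, and 2 genes in place of 5 were at least 20% lower. Schwann-like cells, the glia of nerves, had 6 of 10 genes higher and 1 lower, against 34.9% and 36.1% of all genes. H2-K1 there was 334 CPM for WT and 619 CPM for the knockout with a ratio of 1.85 (1.37 to 2.57), and B2m 835 CPM for WT and 1188 CPM for the knockout with a ratio of 1.42 (1.17 to 1.74). The class held 60 WT and 125 knockout cells, and the other Schwann ratios had 1 inside their intervals.

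Monocyte-like cells had 4 of 10 genes higher and 0 lower, against 29.4% and 41.2% of all genes, with B2m at 1.55 (1.41 to 1.71) and Psmb8 at 1.33 (1.12 to 1.60), while H2-K1 was 0.857 (0.770 to 0.956). Marker lists in this class moved with genotype as well: the monocyte list summed to 5304 CPM in WT and 10605 CPM in knockout cells, the NK cell list to 439.9 and 35.0 CPM, the T cell list to 72.1 and 2.19 CPM, the neutrophil list to 169 and 851 CPM and the dendritic list to 256 and 73.3 CPM. Their part in the monocyte ratios was not tested. Dendritic-like cells had 5 of 10 higher and 0 lower, against 31.5% and 34.9%. Psmb8 there was 1.54 (1.38 to 1.72) and Psmb9 1.59 (1.39 to 1.82), on top of the highest WT levels of any class, and Tap1 was 1.00 (0.763 to 1.31). The dendritic count of 5 moved to 3 when cells were weighted equally and to 0 with gates on thinned counts, and 2 genes were lower on thinned cells. Over all alternatives the count of higher genes ran from 3 to 7 in monocyte-like and from 3 to 6 in Schwann-like cells, and that of lower genes in committed myocyte-like cells from 1 to 6. The dendritic list joins several dendritic types, and a different mix of them in the 2 libraries was not tested. In the lymphocytes Psmb10 differed most. It was 126 CPM for WT and 276 CPM for the knockout in NK cell-like cells with a ratio of 2.20 (1.42 to 3.51) and 128 CPM for WT and 231 CPM for the knockout in T cell-like cells with a ratio of 1.80 (1.247 to 2.64). Psmb8 was 1.57 (1.24 to 1.99) in NK cell-like and 1.16 (0.964 to 1.39) in T cell-like cells, and the T cell heavy chains were 1.06 (H2-K1) and 1.14 (H2-D1).

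Because Psmb8, Psmb9 and Psmb10 replace constitutive subunits, the rest of the proteasome was examined beside them. The constitutive subunits Psmb5 and Psmb6 were at least 25% higher in the knockout library too, in each of the 4 classes below. Psmb7 was so only in fibroblast-like and satellite cell and myoblast-like cells. Psmb6 was 1.43 (1.28 to 1.60) in endothelial-like, 1.39 in macrophage-like, 1.55 in fibroblast-like and 1.50 in satellite cell and myoblast-like cells. Psmb5 was 1.34, 1.28, 1.44 and 1.36, and Psmb7 1.09, 1.20, 1.27 and 1.36, in the same order. Of 16 other subunits and assembly factors of the 20S core, 7 were at least 25% higher in endothelial-like, 9 in macrophage-like, 11 in fibroblast-like and 10 in satellite cell and myoblast-like cells, and 0 were at least 20% lower in any of the 4. The shares of all genes at least 25% higher were 18.4%, 9.91%, 17% and 18.8% in the same order. Their median log2 ratios were 0.29, 0.36, 0.55 and 0.45. Psma6, a ring subunit with no cutting site, was 1.63, 1.59, 1.75 and 1.74, above the Psmb8 ratio in each class. The activators Psme1 and Psme2, which form the interferon-inducible PA28 cap, were 1.36 and 1.59 (1.53 to 1.66) in macrophage-like and 1.30 and 1.54 in endothelial-like cells.

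The inducible share is the UMIs of the inducible gene as a percent of those of the pair. It is read only between classes or libraries, since the capture of 2 genes can differ. For Psmb8 with Psmb5 it was 62.1% (61.3 to 63.0) in WT and 62.7% (61.9 to 63.5) in knockout macrophage-like cells, and 58.8% (55.3 to 62.3) and 62.1% (60.2 to 63.9) in endothelial-like cells, where the intervals overlap. In fibroblast-like cells it was 31.4% and 34.0%, and in satellite cell and myoblast-like cells 18.2% (16.4 to 20.2) and 14.9% (13.7 to 16.1), lower in the knockout library. In T cell-like cells it was 83.0% (77.8 to 87.4) and 75.6% (71.0 to 79.8), with overlapping intervals. Classes differed far more than genotypes. The Psmb8 share ran from 5.36% and 7.55% in muscle fibre-like barcodes over 7.80% and 7.89% in committed myocyte-like cells to 85.4% and 85.1% in dendritic-like cells. For Psmb10 with Psmb7 the endothelial share was 51.6% (46.4 to 56.7) and 59.4% (56.5 to 62.2), the NK cell share 53.1% and 73.3%, and the dendritic share 61.0% and 46.0%. For Psmb9 with Psmb6 the share was 36.1% and 36.6% in endothelial-like and 28.7% and 29.9% in macrophage-like cells. It was lower in the knockout library in fibroblast-like (15.2% and 13.3%) and satellite cell and myoblast-like cells (7.30% and 7.18%). It was also lower in monocyte-like (62.5% and 51.4%), dendritic-like (80.2% and 75.4%), T cell-like (66.7% and 59.4%) and NK cell-like cells (65.5% and 59.1%). In mural-like (14.4% and 16.0%) and tenocyte-like cells (4.23% and 5.75%) it was higher. The intervals of the 2 libraries overlapped in each of these classes.

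**Figure D3:**
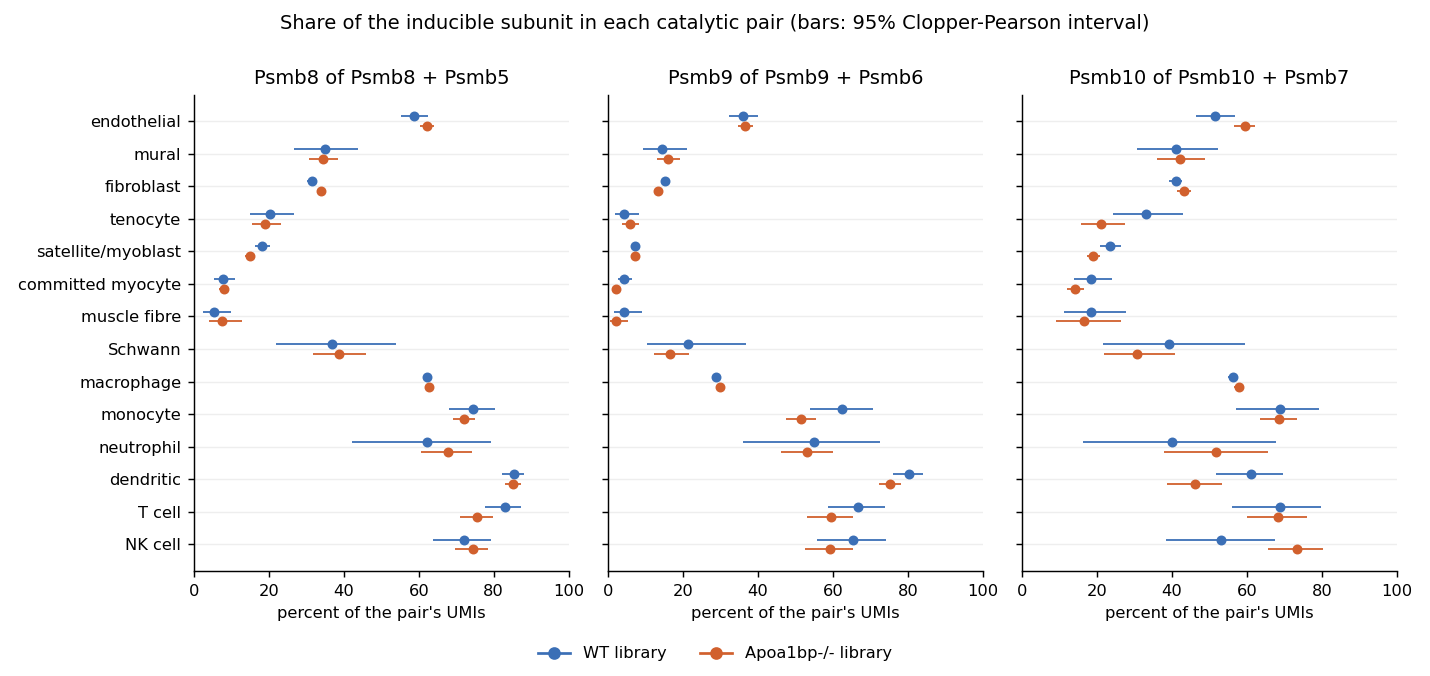
UMIs of the inducible subunit as a percent of the UMIs of its inducible and constitutive pair (Psmb8 with Psmb5, Psmb9 with Psmb6, Psmb10 with Psmb7) in each class, for the WT and the knockout library, with exact 95% binomial intervals. Muscle fibre-like and committed myocyte-like cells are lowest for Psmb8, and dendritic-like cells are highest for Psmb8 and Psmb9.

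The loading and trimming genes had both directions. Of 8 such genes, 1 was higher and 5 lower in endothelial-like cells (all genes 18.4% and 34.2%), and 0 and 5 in macrophage-like cells (all genes 9.91% and 30.1%). In mural-like cells 3 were higher and 2 lower (all genes 25.1% and 39.8%), and in T cell-like cells 5 and 1 (all genes 32.1% and 36.1%). Calreticulin (Calr), which holds new heavy chains in the loading complex, was 634 CPM for WT and 405 CPM for the knockout in macrophage-like cells with a ratio of 0.639 (0.624 to 0.656), 0.716 in endothelial-like and 0.595 in satellite cell and myoblast-like cells. Lnpep, a peptide-trimming enzyme of endosomes, was 0.646, 0.713, 0.580 and 0.721 in endothelial-like, macrophage-like, fibroblast-like and satellite cell and myoblast-like cells. Pdia3, the disulfide enzyme that partners tapasin, went the other way, at 1.69 (1.64 to 1.75) in fibroblast-like and 1.40 in endothelial-like cells. Tapasin's own ratio in fibroblast-like cells was 0.648, so the 2 partners had opposite directions there.

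Among 22 other class I heavy chain genes, 19 were in the tables. In macrophage-like cells 11 reached 5 CPM, of which 5 were higher and 2 lower (all genes 9.91% and 30.1%), and in endothelial-like cells 4 of 12 were higher and 1 lower (all genes 18.4% and 34.2%). H2-T23, the nonclassical chain that NK cells read through NKG2A, was 1.40 in macrophage-like and 0.759 in satellite cell and myoblast-like cells. H2-T22 was 1.54 and 1.42 in endothelial-like and macrophage-like cells, and H2-Q6 0.550 in endothelial-like cells. Counts of the H2-Q and H2-T genes are uncertain, since these near copies share sequence that a counter can assign to either. Fcgrt, the neonatal Fc receptor, which pairs with B2m but shows no peptides, was 271 CPM for WT and 137 CPM for the knockout in macrophage-like cells with a ratio of 0.508 (0.487 to 0.529). H2-K1 shares 0.443% of the 50-base words of its last 500 bases with H2-D1, so their ends share little sequence.

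Regulators of the module were counted too. Of 16 transcription regulators of at least 5 CPM, 2 were higher and 7 lower in endothelial-like cells (all genes 18.4% and 34.2%), and 1 and 5 in macrophage-like cells (all genes 9.91% and 30.1%), the latter close to the share of all genes for the lower side. Stat2, a part of the complex that type I interferon activates, was 1.40 (1.04 to 1.92) in endothelial-like, 1.29 in macrophage-like and 1.35 in fibroblast-like cells. Rela, an NF-kB subunit, was 0.703, 0.682 and 0.655 in the same classes and 0.675 in satellite cell and myoblast-like cells. Irf1, an interferon-induced activator of Psmb9 and Tap1, was 0.693 (0.536 to 0.899) in endothelial-like cells. Of 8 counted genes for interferon receptors, their kinases and interferons, 1 was higher and 5 lower in fibroblast-like cells (all genes 17% and 28.6%). In satellite cell and myoblast-like cells 0 of 8 were higher and 5 lower (all genes 18.8% and 27.1%). The counts were 1 and 2 in endothelial-like cells (all genes 18.4% and 34.2%), and 1 and 1 in macrophage-like cells (all genes 9.91% and 30.1%). In fibroblast-like cells Ifngr1, the ligand-binding chain of the interferon gamma receptor, was 0.648 (0.609 to 0.689). In macrophage-like cells Ifngr1 was 1.20. Ifng itself, made by lymphocytes, was 116 CPM for WT and 158 CPM for the knockout in NK cell-like cells with a ratio of 1.36 (0.840 to 2.28) and 84.6 CPM for WT and 129 CPM for the knockout in T cell-like cells with a ratio of 1.52 (0.952 to 2.49).

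Within macrophages the genes followed cell state. Cells with at least 3 of the interferon-state markers Cxcl10, Rsad2, Ifit1, Ifit2, Ifit3 and Cmpk2 numbered 162 of 5130 WT and 285 of 3195 knockout macrophage-like cells. These shares depend on depth, which was higher in the knockout library, and are not compared. Psmb8 in them was 513 CPM in the WT library and 545 CPM in the knockout library, against 279 and 359.8 CPM in the other macrophage-like cells. Inside over outside, Tap1 was 2.79 (2.28 to 3.39) in the WT library and 2.15 (1.86 to 2.47) in the knockout library, Nlrc5 3.33 and 2.78, Psmb9 2.18 and 1.77, and Psmb10 2.104 and 1.54. The heavy chains and B2m were closer to the other cells, with H2-K1 at 1.38 and 1.17 and B2m at 1.29 and 1.10. The knockout over WT ratio inside this state was 1.06 (0.957 to 1.18) for Psmb8, 0.948 (0.754 to 1.20) for Tap1, 1.16 (1.01 to 1.34) for Psmb9 and 0.873 (0.826 to 0.923) for H2-K1. Outside it, Psmb8 was 1.29 (1.248 to 1.33), Psmb9 1.44 (1.37 to 1.50) and Tap1 1.23 (1.13 to 1.34), so the class-wide ratios are nearly as large without these cells. Whether the ratio differs between the 2 states was not tested.

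Lipid-associated macrophages, defined by Gpnmb, Spp1, Trem2, Fabp5, Lgals3 and Cd9, were lower than the other macrophage-like cells for all 10 genes in both libraries. The share of all genes lower in them was not worked out, so this count has no background to be read against. Their median depth was 5987 UMIs in WT and 9247.5 UMIs in knockout cells, against 3397 and 5008 UMIs in the other macrophage-like cells. Inside over outside, H2-K1 was 0.746 (0.731 to 0.761) in the WT library and 0.682 (0.668 to 0.696) in the knockout library, Tap1 0.584 and 0.610, Psmb9 0.698 and 0.688, and B2m 0.906 and 0.895. Resident macrophages, with Cd163, Lyve1 and Fcna, numbered 802 WT and 79 knockout cells and had H2-K1 at 1.19 and 1.35 times the other macrophages. Their Psmb8 was 0.995 (0.933 to 1.06) in the WT, level with the other cells, and 1.27 (1.11 to 1.44) in the knockout library. In cycling macrophages the genes had both directions. H2-K1, H2-D1 and Tapbp were lower in them, at 0.802, 0.744 and 0.738 in the WT library and 0.695, 0.652 and 0.656 in the knockout library. Psmb9 and Tap1 were higher in the same cells, at 1.42 (1.30 to 1.55) and 1.33 in the WT library and 1.18 (1.09 to 1.27) and 1.33 in the knockout library. Psmb10, unlike Psmb8 and Psmb9, was lower, at 0.727 and 0.690. In cycling fibroblasts Psmb9 was 1.49 and 1.42 times the other fibroblasts, Tapbp 0.605 and 0.617, Tap1 0.958 and 1.22, and Psmb10 0.735 and 0.928. The intervals of Tap1 in both libraries and of Psmb10 in the knockout library included 1.

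**Figure D4:**
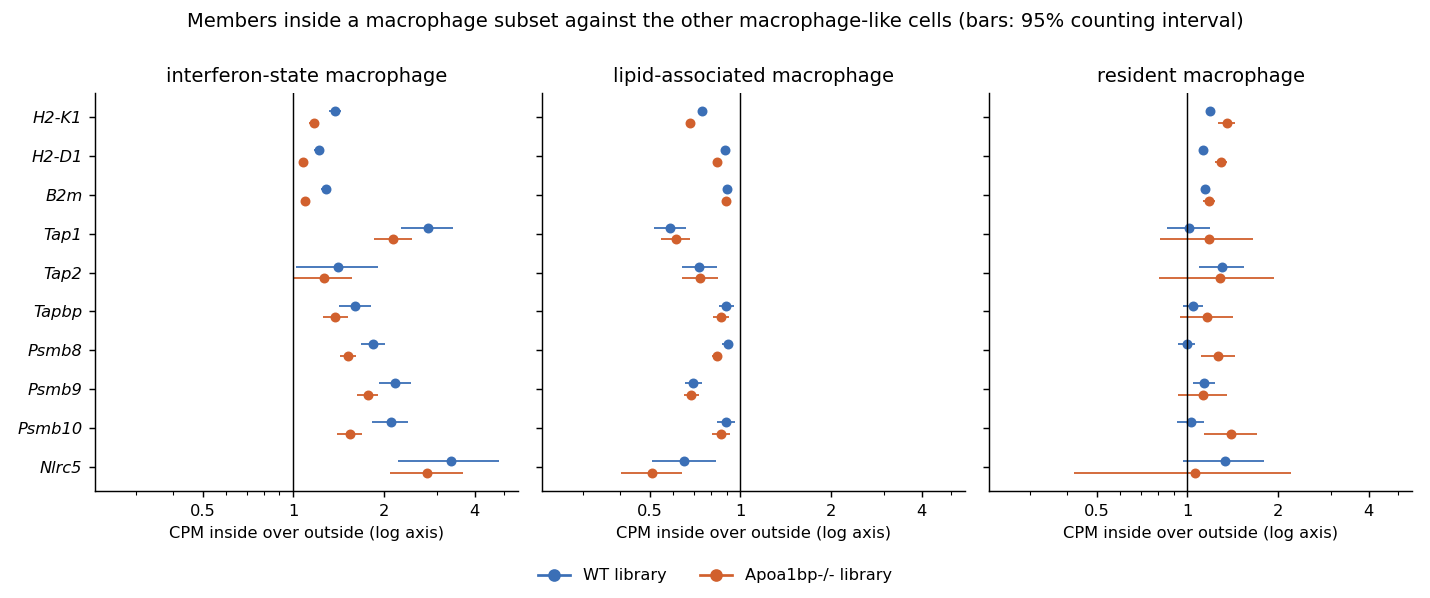
Ratio of each gene's level inside a macrophage subset to its level in the remaining macrophage-like cells (log axis), for the WT and the knockout library, with exact 95% counting intervals. Interferon-state cells lie above 1 for all 10 genes, most for Tap1 and Nlrc5, and lipid-associated cells lie under 1. The share of all genes above or under 1 was not worked out for these subsets.

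Fibroblast states differed in H2-K1. Pi16 fibroblasts, a progenitor-like state, numbered 1305 of 3620 WT and 195 of 1320 knockout fibroblast-like cells. They had more H2-K1 than the other fibroblasts, 618 against 398 CPM in the WT library and 762 against 311 CPM in the knockout library. The knockout over WT ratio of H2-K1 was 1.23 (1.15 to 1.32) within Pi16 fibroblasts and 0.782 (0.752 to 0.813) in the rest, so the 2 parts of the class had opposite directions. Tapbp was 0.835 (0.727 to 0.957) within and 0.692 (0.645 to 0.742) outside them. Activated fibroblasts, which make scar matrix, were low in H2-K1, at 0.540 and 0.566 of the other fibroblasts, and in H2-D1 (0.529 and 0.590). Psmb8 was nearer to the other fibroblasts in these states, with 1.11 and 1.17 in Pi16 and 0.932 and 0.869 in activated fibroblasts, and its knockout over WT ratio was 1.73 (1.47 to 2.02) in Pi16 and 1.57 (1.41 to 1.74) in activated cells. The part of the states' mix in the class-wide H2-K1 ratio was not tested.

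In endothelium the knockout over WT ratios of the proteasome genes were larger in capillary-like than in the remaining cells. Capillary-like cells numbered 245 of the 346 WT and 266 of the 360 knockout cells of the class. Psmb8 was 278 CPM in WT and 460.3 CPM in knockout capillary-like cells with a ratio of 1.65 (1.47 to 1.86), and 230.3 and 249 CPM in the remaining endothelial-like cells with a ratio of 1.08 (0.846 to 1.39). Tap1 was 1.53 (1.15 to 2.07) in capillary-like and 0.611 (0.340 to 1.12) in the remaining cells, and Psmb10 1.61 (1.35 to 1.94) and 1.05 (0.718 to 1.56). H2-K1 was 1.01 (0.959 to 1.07) in capillary-like cells and 0.650 (0.587 to 0.721) in the rest. Arterial-like cells were gated separately and can also count as capillary-like. These cells, 58 WT and 75 knockout cells, had Psmb8 at 1.56 (1.30 to 1.87) and H2-K1 at 0.982 (0.900 to 1.07). The difference of these ratios between subsets was not tested. Without any cell that had 3 interferon-state markers, the endothelial ratios were 1.34 for Psmb8, 1.33 for Psmb9, 1.37 for Psmb10 and 1.18 for Tap1.

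Transcript length moved with the genotype ratio over all genes, and it lies beside every ratio above. Genes of at least 20 CPM were put in 3 groups of equal size by their longest coding transcript. In endothelial-like cells the median log2 ratio was 0.16 in the short, -0.14 in the middle and -0.30 in the long group, and in macrophage-like cells 0.11, -0.12 and -0.24. In the short group 29.7% of endothelial and 21.7% of macrophage genes were at least 25% higher in the knockout library. Of the genes described here, B2m (860 bases), Psmb10 (1311), Psmb9 (1352), H2-K1 (1619) and Psmb8 (1628) were in the short group in all 4 main classes. H2-D1 has 2102 bases and was in the short or the middle group, Tapbp (2898), Tap1 (2953) and Tap2 (3442) were in the middle group where they reached 20 CPM, and Nlrc5, the longest at 7578 bases, did not reach it. In fibroblast-like cells the group medians were 0.19, -0.09 and -0.24, and in satellite cell and myoblast-like cells 0.19, -0.06 and -0.18. In these 2 classes 32.7% and 32.5% of the short group were at least 25% higher. In fibroblast-like cells H2-K1 was 0.766, Psmb8 1.62, Tap1 1.48 and Tapbp 0.648. In satellite cell and myoblast-like cells they were 0.883, 1.06, 1.57 and 0.750. The part of length in the genotype ratios was not tested.

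**Figure D5:**
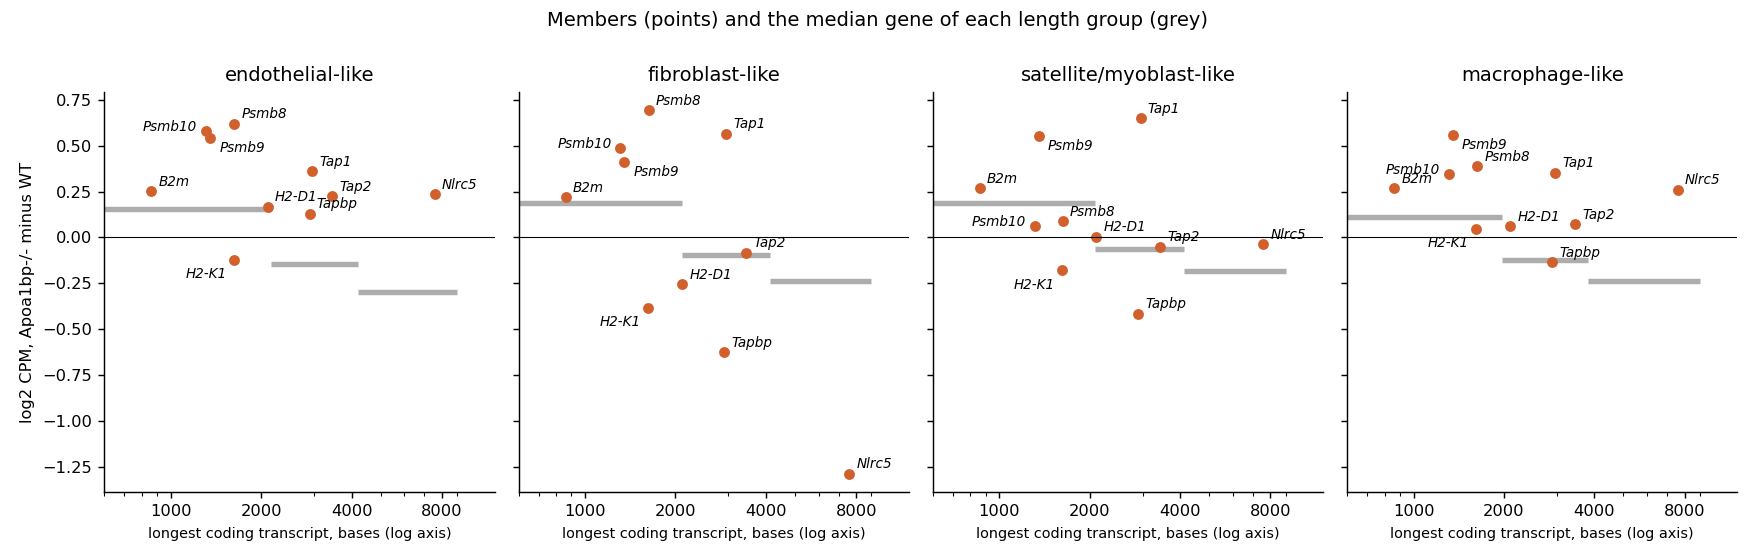
Log2 ratio of knockout over WT against the length of the longest coding transcript (bases, log axis) for the 10 described genes, in the 4 classes of at least 200 cells per library. Grey lines are the medians of all genes of at least 20 CPM in each length group. The medians fall from the short to the long group. In endothelial-like and macrophage-like cells Psmb8, Psmb9 and Psmb10 lie above the median of the short group.

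Across the 29 sums of a class and a library, whose points share 2 libraries and their depth, the genes fell into nearby patterns. As a description, Pearson's r of log2(CPM + 5) was 0.98 for Psmb8 and Psmb9, 0.97 for H2-D1 and B2m, 0.97 for Tap1 and Psmb8, and lowest, 0.61, for Tapbp and Nlrc5. Among 11628 other genes the genes whose pattern was most like that of H2-K1 included H2-T23 (0.94), Ptpn18 (0.94), Ifngr1 (0.94) and Sp110 (0.92). Those most like Psmb8 included H2-T23 (0.95), Psme1 (0.95), Ptpn18 (0.91) and Actr2 (0.91). Summed over all kept cells, the ratio of Tapbp was 0.758, and with each class given the same weight in both libraries it was 0.827. Psmb9 was 1.47 and 1.43 in the same 2 ways, and H2-K1 0.952 and 0.973. Macrophage-like cells held 53.1% of WT and 52.0% of knockout H2-K1 UMIs, and endothelial-like cells 3.18% and 7.44%.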

How the data were processed

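The authors deposited raw UMI counts per gene and barcode, 1 matrix per genotype, made with Cell Ranger, version 5.0.0 per the file headers and 2.1.1 per the submitters' processing notes, a difference that could not be settled. The sources used here do not give the genome build, so RefSeq coordinates (GRCm38.p6) are those of the sequence tables alone. Genes were taken by symbol. Barcodes with under 200 genes or over 10% mitochondrial UMIs were removed.

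A marker counted in a cell from 10% of its high level (the 99.5th percentile of CPM over all cells), a floor set after seeing how widely markers were detected. A cell joined the class with the largest share of its markers, at least 3. Cells with 3 markers of an unrelated second class (12.5% of WT and 8.78% of knockout cells) were removed in place of a doublet caller. Counts were summed per class and library. Ratios have exact conditional intervals and shares exact Clopper-Pearson intervals, at 95%, for counting error only. A count of 0 was given the limit of 3 counts. Levels were read as CPM of the class total, and a gene was counted from 5 CPM, with limits of 25% higher and 20% lower. Log2 ratios used 0.5 added UMIs. No test was run. The ratio calculation was tested on simulated counts with known folds, drawn with Poisson counting error alone. The intervals assume that error, so their coverage checks the calculation and not variation between cells or mice. The intervals held the fold for 96.5% of genes given a fold in endothelial-like cells and 93.5% in macrophage-like cells. Of unchanged genes of at least 20 CPM, 9.36% in endothelial-like and 0% in macrophage-like cells passed a limit by counting error alone.

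Named genes are all 10 members and, of each pathway list, up to 4 genes of at least 20 CPM with the largest absolute log2 ratio in a class. Such a gene may also be given in other classes, and Ifng, Psma6 and Irf1 follow the rule in at least 1 class shown. For H2-K1 and Psmb8 the genes most like them among the 5 highest correlations are named, with 1 result not reported here. The members and lists were chosen with earlier results of these data known. Python 3.11.15, numpy 2.4.6, scipy 1.17.1, pandas 2.3.3 and matplotlib 3.10.9 were used.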

Additional observations from a re-analysis of the deposited data

Results flagged for a closer look

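H2-K1 differed in direction between classes under the same genotype contrast. Its knockout over WT ratio was 1.85 in Schwann-like cells, and 0.782 in mural-like, 0.766 in fibroblast-like and 0.684 in committed myocyte-like cells, each with a counting interval on its own side of 1. The difference between classes was not tested, since each class has 1 library per genotype. With macrophage RNA taken off, the ratios were 2.05, 0.802, 0.774 and 0.821 in the same order.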

How the results depend on the processing

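No paired analysis was possible because each genotype has 1 library. Under 13 alternatives, 93 of 104 recomputed counts for the 4 main classes stayed within 1.5 times the reported count, and 11 did not. The endothelial count of higher genes was 7 with median-of-ratios scaling, and that of lower genes was 1 as a mean over cells, on cells thinned to 1000 UMIs, and without cells with 3 interferon-state markers. The fibroblast count of higher genes was 2 on thinned cells, and that of lower genes 1 as a mean over cells and with gates on thinned counts. In satellite cell and myoblast-like cells 1 gene was higher with a gate of 4 markers and with cells of mixed lineage kept, and 0 and 2 were lower with gates on thinned counts and with mixed cells kept. The 10 of 10 genes higher in endothelial-like than in satellite cell and myoblast-like cells held under all alternatives run. Of 479 recomputed ratios 417 stayed inside the counting interval, 61 left it, and Nlrc5 in fibroblast-like cells reversed to 1.36 on thinned cells. Only ratios past a limit could be labelled as reversed, and some nearer to 1 also changed side. In endothelial-like cells Tap2 went from 1.17 to as low as 0.777 and Nlrc5 from 1.20 to 0.753. In satellite cell and myoblast-like cells Psmb8 went from 1.06 to 0.928. The ranges were 1.29 to 1.38 for Psmb8 and 1.44 to 1.56 for Psmb9 in macrophage-like cells, 1.34 to 1.66 for Psmb8 in endothelial-like cells, and 0.733 to 0.814 for H2-K1 and 0.630 to 0.678 for Tapbp in fibroblast-like cells. Other ranges reached below 25% higher. These were 1.17 to 1.66 for endothelial Tap1, 1.08 to 1.35 for macrophage Tap1 and 1.22 to 1.34 for macrophage Psmb10. They were 1.13 to 1.39 for fibroblast Psmb9, 1.20 to 1.46 for fibroblast Psmb10 and 1.04 to 1.74 for satellite cell and myoblast Psmb9. In the smaller classes 68 of 260 counts moved further than 1.5 times, and the cause was not tested. Leaving out interferon-state cells, counting any UMI of a marker and taking off macrophage RNA were chosen after seeing the data.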
